A study of Mus musculus with 6 samples.

Results

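C2C12 cells are a mouse myoblast line that fuses into myotubes in low serum and can be turned towards an adipocyte fate by an adipogenic cocktail. Lsd1 (Kdm1a) ChIP-seq was available for 3 conditions on day 1 of differentiation. One held wild-type cells in myogenic medium with horse serum, the next wild-type cells under adipogenic differentiation, and the last LSD1(OE) cells under the same adipogenic treatment. The adipogenic cocktail combined isobutylmethylxanthine and indomethacin with dexamethasone, rosiglitazone, T3 and insulin in medium with FCS. All cells were at passages 3 to 5, and a homemade antibody to the Lsd1 C-terminus was used throughout. The LSD1(OE) line carries a stably integrated, doxycycline-inducible Flag-LSD1 lentivirus selected with G418 and was induced before and during differentiation with doxycycline, an agent not listed for the wild-type cells, so that the raised LSD1 level, the line and doxycycline cannot be told apart.

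Each condition had 1 ChIP library and 1 input library, and no value below has a replicate. Peaks of the 3 deposited lists were pooled, and intervals that shared at least 1 bp were merged into 56729 regions, of which 43367 were distal, with a centre more than 2000 bp from every curated RefSeq transcription start site (TSS). The regions described here are the 16974 distal regions that contained a peak of the myogenic list and none of the other lists. They were chosen by the measured peak calls themselves, so their myogenic signal and its absence from the other lists are descriptions and not findings. They made up 39.1% of all distal regions, and no test between conditions was possible. "Myogenic-only" below refers to these calls. Tags of the adipogenic and LSD1(OE) libraries at these positions were not analysed here, and binding below a peak caller's cut-off cannot be told apart from no binding.

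Lsd1 removes methyl groups from histone H3 lysine 4 and lysine 9 and acts within complexes with CoREST and histone deacetylases. It has no known sequence preference of its own and is brought to promoters and distal enhancers by transcription factors. Enhancers of muscle cells are commonly marked by E-boxes of the sequence CAGCTG, the preferred site of MyoD and myogenin dimers, and by AP-1, Tead and Runx sites. C/EBP sites are typical of enhancers that open early in adipogenesis. The letters around the summits of the myogenic-only regions were not used by the rule that chose them, and are given first. They need not be independent of it, since GC content and repeats, given below, differed between classes.

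The following windows, 100 bp either side of the peak summit, show what these regions look like. All are the plus strand of GRCm38.p6 (mm10), and capitals mark CAGCTG, the AP-1 site TGANTCA or the CTCF core on either strand. Regions of the highest scores with CAGCTG near the summit come first, each named by the gene of its nearest TSS. A region near Bin1 that ranks among them (score 631) is not printed.
Enpp5, chr17:44027540-44027740: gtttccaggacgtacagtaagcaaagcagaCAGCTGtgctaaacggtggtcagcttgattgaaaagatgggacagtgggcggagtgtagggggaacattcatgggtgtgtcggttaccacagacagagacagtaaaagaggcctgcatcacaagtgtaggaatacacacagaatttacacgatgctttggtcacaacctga
Ttc39a, chr4:109439967-109440167: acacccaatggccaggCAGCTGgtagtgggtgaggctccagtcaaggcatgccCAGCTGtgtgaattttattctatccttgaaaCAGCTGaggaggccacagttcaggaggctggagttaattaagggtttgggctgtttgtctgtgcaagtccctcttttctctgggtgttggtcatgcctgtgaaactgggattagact
Gm11211, chr4:62732977-62733177: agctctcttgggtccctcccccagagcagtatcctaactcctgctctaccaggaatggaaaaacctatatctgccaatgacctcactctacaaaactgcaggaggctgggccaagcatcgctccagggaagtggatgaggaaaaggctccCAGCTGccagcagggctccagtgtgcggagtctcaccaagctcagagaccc
Smim38, chr7:145219582-145219782: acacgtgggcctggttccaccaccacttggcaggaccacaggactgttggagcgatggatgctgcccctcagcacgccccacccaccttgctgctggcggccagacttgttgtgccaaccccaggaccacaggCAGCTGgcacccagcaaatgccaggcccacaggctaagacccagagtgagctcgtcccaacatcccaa
Rbms2, chr10:128184153-128184353: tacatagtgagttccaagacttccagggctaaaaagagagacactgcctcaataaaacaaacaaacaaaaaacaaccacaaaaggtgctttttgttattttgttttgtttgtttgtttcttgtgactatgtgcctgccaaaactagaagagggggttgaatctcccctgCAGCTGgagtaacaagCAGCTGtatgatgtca
Ptchd3, chr11:121794981-121795181: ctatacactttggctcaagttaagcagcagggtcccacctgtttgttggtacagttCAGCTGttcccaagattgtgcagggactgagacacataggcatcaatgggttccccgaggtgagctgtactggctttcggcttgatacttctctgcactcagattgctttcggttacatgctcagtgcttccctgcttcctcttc
The window of Ttc39a held 3 copies of CAGCTG and that of Rbms2 held 2, while the other 4 held 1 each.

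The other 4 windows show other site combinations among the named regions. They are the strongest Myog region, with 2 E-boxes, the strongest Maml2 region, with 1 E-box and 1 AP-1 site, the Gm13985 region, with 2 AP-1 sites, and the strongest region with a CTCF core, near Slx4, which was chosen after its values were seen.
Myog, chr1:134307580-134307780: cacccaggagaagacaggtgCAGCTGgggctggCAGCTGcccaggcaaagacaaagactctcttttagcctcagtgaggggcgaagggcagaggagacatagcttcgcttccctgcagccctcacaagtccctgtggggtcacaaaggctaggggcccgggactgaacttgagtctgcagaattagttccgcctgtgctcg
Maml2, chr9:13564225-13564425: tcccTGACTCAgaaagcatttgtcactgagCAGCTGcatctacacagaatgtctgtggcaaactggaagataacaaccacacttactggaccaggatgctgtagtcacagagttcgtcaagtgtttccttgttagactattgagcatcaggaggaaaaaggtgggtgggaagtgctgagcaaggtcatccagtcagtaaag
Gm13985, chr2:117710415-117710615: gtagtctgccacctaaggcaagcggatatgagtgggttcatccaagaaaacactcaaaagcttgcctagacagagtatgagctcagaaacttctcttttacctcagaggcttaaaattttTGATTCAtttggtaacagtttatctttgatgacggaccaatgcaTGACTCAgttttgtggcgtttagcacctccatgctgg
Slx4, chr16:4003992-4004192: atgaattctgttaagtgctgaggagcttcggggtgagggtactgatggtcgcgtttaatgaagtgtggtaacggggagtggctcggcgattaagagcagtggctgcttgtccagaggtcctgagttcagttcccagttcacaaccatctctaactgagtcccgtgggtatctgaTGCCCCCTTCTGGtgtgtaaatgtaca

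CAGCTG was found within 100 bp of the summit in 3143 of the 16974 myogenic-only distal regions, or 18.5% (95% Wilson interval 17.9 to 19.1%). Windows of the same length 1000 bp to either side of the same summits held it in 9.73% (9.42 to 10.0%), so the share at the summit was 1.90 times that of the flanks. Intervals treat regions as independent and cover counting error only. In distal regions called in all 3 libraries the share was higher, at 28.5%, a difference of -10.02 percentage points (95% Newcombe interval -11.3 to -8.77). Against the 4411 distal regions shared by the myogenic and LSD1(OE) lists alone, which held CAGCTG in 20.9%, the difference was -2.36 points (-3.72 to -1.05). LSD1(OE)-only distal regions, from cells in adipogenic medium, held it in 16.7%, and the difference was 1.78 points (0.857 to 2.70). Wild-type adipogenic-only regions held it in 18.6% (16.9 to 20.4%), with an interval that overlapped that of the myogenic-only regions. The share was 22.8% in regions of the adipogenic and LSD1(OE) lists alone and 25.3% in those of the myogenic and adipogenic lists alone. CAGCTG exceeded the flanks in all of these classes. A control palindrome of the same letters, CTGCAG, was found in 13.2% of myogenic-only summits and 9.11% of their flanks, a ratio of 1.45. Its share also differed between classes, by -3.82 points (-4.89 to -2.78) against regions of all 3 libraries, by -2.09 points (-3.29 to -0.935) against those shared with LSD1(OE) and by -1.21 points (-2.05 to -0.371) against LSD1(OE)-only regions. The differences of CAGCTG and its control from the regions shared with LSD1(OE) were thus of similar size.

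The AP-1 site TGANTCA, bound by Fos and Jun dimers, was found in 2469 myogenic-only regions, or 14.5% (14.02 to 15.1%), against 6.48% of flanks, a ratio of 2.24. Again the share lay below that of regions called in all 3 libraries, 22.1%, by -7.51 points (-8.67 to -6.37), and above that of LSD1(OE)-only regions, 11.6%, by 2.98 points (2.17 to 3.78). Regions shared with LSD1(OE) held the AP-1 site in 19.8%, a difference of -5.22 points (-6.53 to -3.95). Adipogenic-only regions held it in 14.9% (13.4 to 16.5%), with an interval that overlapped that of the myogenic-only regions. The share was 17.1% in regions of the adipogenic and LSD1(OE) lists alone and 23.0% in those of the myogenic and adipogenic lists alone. The second control, GATNATC, was found in 2.13% of summits and 2.42% of flanks. Tead sites (GGAATG) were found in 13.7% of myogenic-only summits and 10.6% of flanks, and Runx sites (TGTGGT) in 20.5% and 16.1%. Both exceeded LSD1(OE)-only regions, Tead by 1.58 points (0.768 to 2.38) and Runx by 2.41 points (1.46 to 3.36). Both stood below regions of all 3 libraries, Tead by -1.50 points (-2.54 to -0.494) and Runx by -2.66 points (-3.87 to -1.46). The E-box CAGGTG, also bound by MyoD and by Snai and Zeb repressors, showed 16.2% at summits and 14.3% in flanks. It was less frequent than in LSD1(OE)-only regions, which held it in 17.3%, by -1.05 points (-1.96 to -0.150), and than in regions without a myogenic peak by -1.30 points (-2.14 to -0.458). CACGTG, the site of Myc and Usf factors, stood at 2.59% of summits and 2.65% of flanks. MEF2 sites were rare, in 118 regions or 0.695% (0.581 to 0.832%), against 0.409% of flanks. LSD1(OE)-only regions held them in 0.150% (0.0926 to 0.244%), and the difference was 0.545 points (0.397 to 0.693). Adipogenic-only regions held them in 0.624% (0.357 to 1.09%), with an interval that overlapped that of the myogenic-only regions. The share was 0.411% in regions of all 3 libraries, 0.385% in those shared with LSD1(OE) and 0.546% in those shared with the adipogenic library. MEF2 proteins act with MyoD at muscle genes. CArG boxes of serum response factor stood at 1.04% of summits and 0.987% of flanks.

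C/EBP sites (TTGCNNAA) were found in 7.64% (7.25 to 8.04%) of myogenic-only summits and in 7.74% of their flanks. The 13826 distal regions without a myogenic peak held them in 11.0% (10.4 to 11.5%), and the difference was -3.32 points (-3.97 to -2.66). For CAGCTG the difference from the same regions was 0.963 points (0.0985 to 1.82). Regions called in all 3 libraries held them in 8.27%, a difference of -0.634 points whose interval, -1.44 to 0.138, included 0.

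The CTCF core was found in 459 myogenic-only regions, or 2.70% (2.47 to 2.96%) against 1.02% of flanks. Regions called in all 3 libraries held it in 1.39% (difference 1.31 points, 0.917 to 1.68) and LSD1(OE)-only regions in 1.48% (difference 1.22 points, 0.879 to 1.55). Regions shared with LSD1(OE) were closer, at 2.06% (difference 0.641 points, 0.122 to 1.10), as were those shared with the adipogenic library, at 2.08%. CTCF is an insulator protein that anchors chromatin loops. In 176 of the 459 regions, or 38.3%, every CTCF match lay in soft-masked sequence, that is, in repeats. Matches outside repeats were found in 1.67% (1.49 to 1.87%) of myogenic-only regions, 1.17% (0.933 to 1.47%) of regions of all 3 libraries and 0.996% (0.824 to 1.20%) of LSD1(OE)-only regions. For comparison, only masked matches were found in 7.92% of the myogenic-only regions with CAGCTG and 9.80% of those with AP-1.

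**Figure D1:**
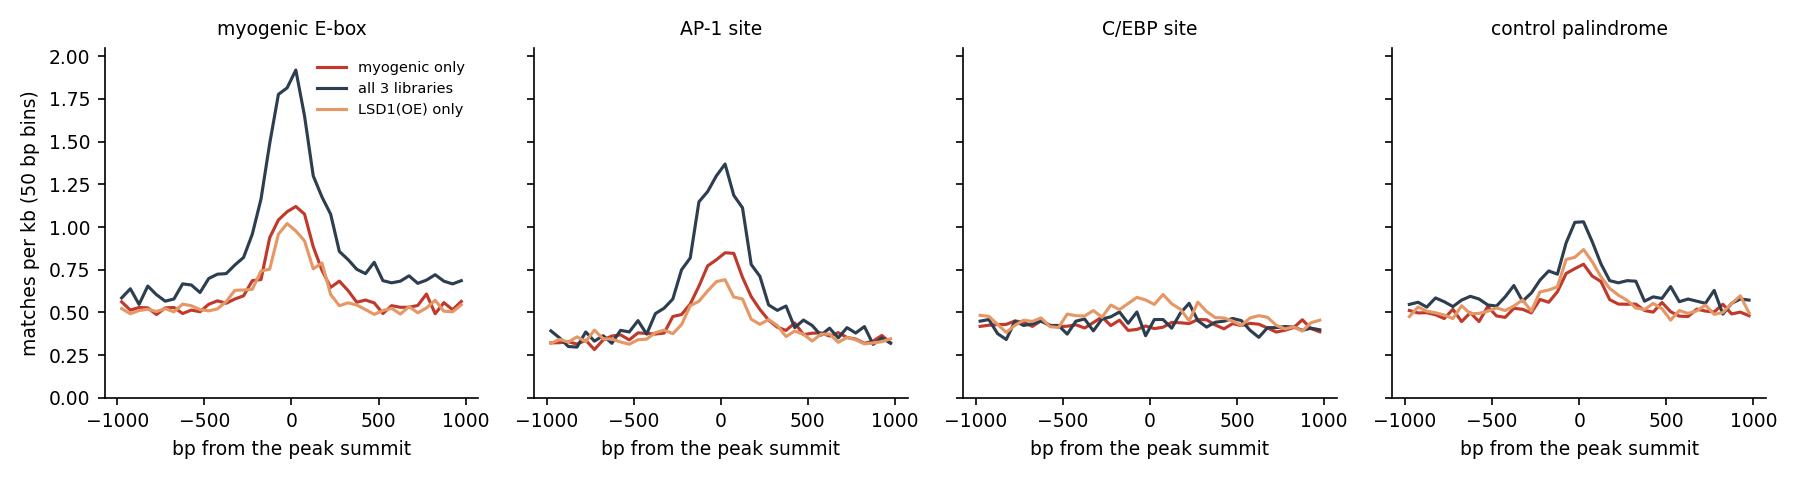
Matches per kb in 50 bp bins against the distance from the peak summit, for the E-box CAGCTG, the AP-1 site, the C/EBP site and the control CTGCAG, in myogenic-only distal regions (red), distal regions of all 3 libraries (dark blue) and LSD1(OE)-only distal regions (orange). In myogenic-only regions the E-box reached 1.12 and the AP-1 site 0.850 matches per kb at the summit, while the C/EBP site stayed near its outer level of 0.420.

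The profile by distance places these matches at the summit. Within 50 bp of the summit, myogenic-only regions held 1.11 CAGCTG per kb, and 0.535 beyond 700 bp, a ratio of 2.06. In regions of all 3 libraries the ratio was 2.91. For the AP-1 site the ratios were 2.52 and 3.77, and for CTGCAG 1.54 and 1.84. The C/EBP ratio was 0.984 in myogenic-only regions and 1.30 in LSD1(OE)-only regions.

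E-box and AP-1 sites occurred together about as often as their separate shares give. Of the 16974 regions, 480 held both, or 2.83%, where the product of the 2 shares is 2.69%. Another 4652, or 27.4%, held one of them, and 11842, or 69.8%, held neither. In regions of all 3 libraries 55.6% held neither. More than one CAGCTG was uncommon, with 363 regions that held 2 copies (2.14%) and 47 that held 3 or more (0.277%). Intronic and intergenic regions held CAGCTG in 18.7% (17.9 to 19.6%) and 17.9% (17.1 to 18.8%), with overlapping intervals. On the 19 autosomes and X, the share ranged from 15.3 to 23.9% for CAGCTG and from 12.2 to 19.1% for AP-1.

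Among the myogenic-only regions, sites became more frequent with the peak score, which is 10 times −log10 of the peak caller's p-value. In 4 score groups of nearly equal size, CAGCTG was found in 16.5, 16.03, 18.7 and 22.9% of regions, from the lowest to the highest scores. AP-1 sites followed, with 11.8, 12.9, 15.001 and 18.4%. The flanks stayed between 9.57 and 9.98% for CAGCTG, and the control CTGCAG went from 12.1 to 14.6%. Regions of all 3 libraries held more E-boxes in each of these score groups. In the lowest score group, up to 55.7, the shares were 16.5% (15.4 to 17.6%) and 25.9% (19.9 to 32.8%, 174 regions). In the highest group, above 107, they were 22.9% (21.7 to 24.2%) and 29.0% (27.8 to 30.2%). CTCF cores did not follow the score, with 2.47, 3.54, 2.74 and 2.07%. In the same score groups, regions shared with LSD1(OE) held CTCF cores in 2.51, 2.46, 1.51 and 2.09%.

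**Figure D2:**
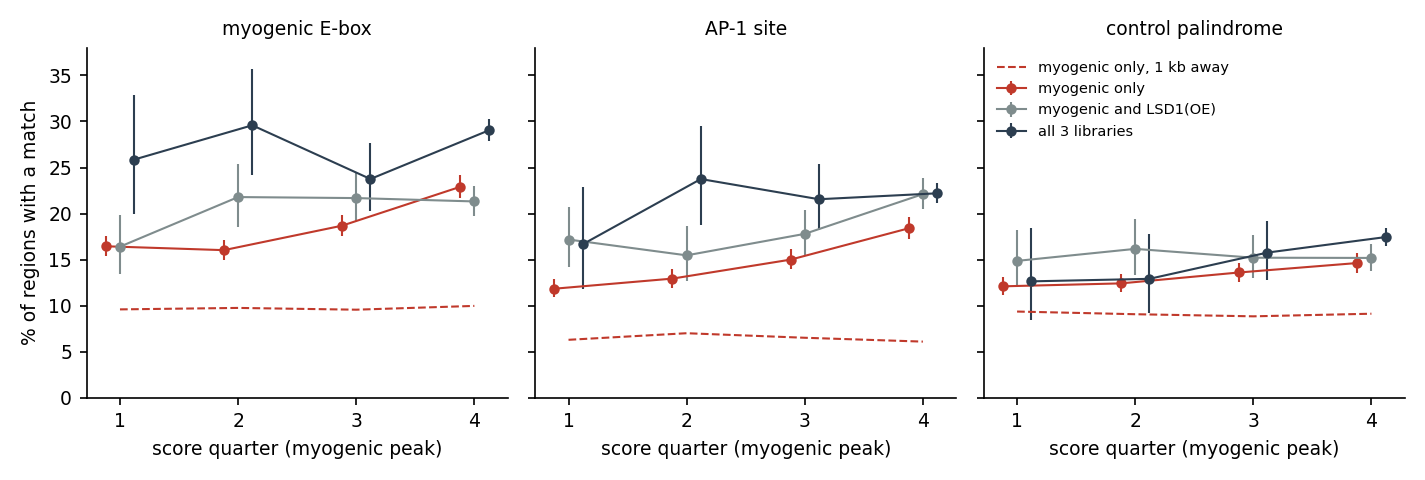
Percent of distal regions with a match within 100 bp of the summit against the myogenic peak score in 4 groups, with 95% Wilson intervals, for myogenic-only regions (red), regions shared with LSD1(OE) (grey) and regions of all 3 libraries (dark blue). The dashed line gives windows 1000 bp from the myogenic-only summits, and the groups divide the myogenic-only regions into nearly equal numbers. In the highest score group the E-box reached 22.9% in myogenic-only regions.

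Base composition moved with these shares. Myogenic-only summits had a median GC content of 48.8%, against 45.02% in their flanks and 52.7% at summits of regions called in all 3 libraries. Over 5 groups of rising GC content, CAGCTG went from 10.0 to 29.0% of myogenic-only regions and CTGCAG from 6.61 to 20.8%. CAGCTG exceeded CTGCAG in every group. AP-1 sites were found in 14.6, 17.1, 15.9, 14.4 and 10.5% of these groups. The part of GC content in the differences between classes was not tested. Soft-masked repeats covered 17.7% of bases in myogenic-only windows, 26.0% in their flanks and 11.1% in regions of all 3 libraries.

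The signal of the myogenic-only regions, which the rule used, was low within the myogenic list. Their score had a median of 69.1, with quartiles of 55.7 and 107, a lowest value of 50 and a highest of 1377. The tag count, not normalized, had a median of 36 and ranged from 27 to 1905, and the length a median of 710 bp and a range of 423 to 6456 bp. The fold enrichment given by the peak caller had a median of 2.14 and the FDR a median of 0.23%. Distal regions of all 3 libraries had a median myogenic score of 290, those shared with LSD1(OE) 120 and those shared with the adipogenic library 144. Of the 43426 myogenic peaks, 39.1% were in myogenic-only distal regions, but only 19.3% of the 24436 with a score of at least 100, 8.31% of those of at least 200 and 1.31% of those of at least 500.

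**Figure D3:**
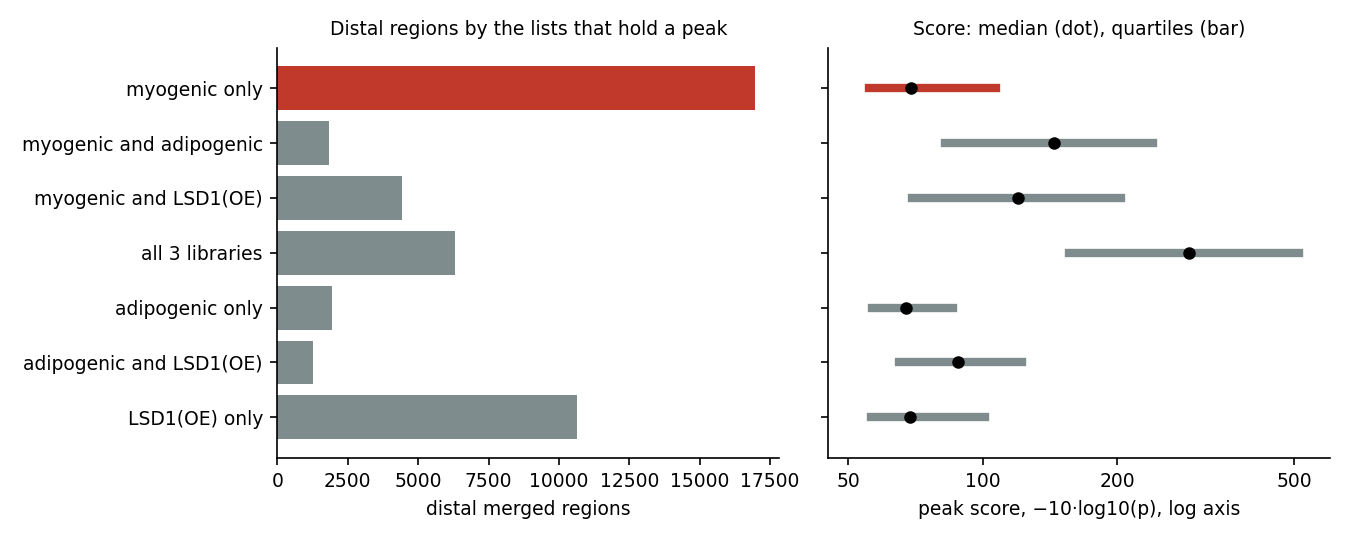
Number of distal merged regions by the lists that hold a peak there (left, bars from 0) and their peak score on a log axis (right, dot for the median, bar for the quartiles), with the score taken from the myogenic peak where there is one, otherwise from the adipogenic and then the LSD1(OE) peak. Myogenic-only regions (red) were the most numerous class, 16974 regions, with a median score of 69.1.

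How many of these regions another library could have called depends on its depth and on how the peak caller scaled its tags. After filtering, ChIP tags numbered 46155625 in myogenic medium, 63915769 in adipogenic medium and 55193310 with LSD1(OE), and input tags 87508211, 81567427 and 100711088. The ChIP tags were scaled up to the input by factors of 1.90, 1.28 and 1.82. The lists held 43426, 18893 and 33533 peaks, so the deepest ChIP library, the adipogenic one, had the fewest. If each region had kept its myogenic tag density, relative to library size, in the adipogenic library, it would have held a median of 49.9 tags there. A Poisson p at the genome-wide input background would then have passed the cut-off of 1e-05 in 13275 regions, or 78.2% (77.6 to 78.8%). At the 6325 distal regions called in all 3 libraries, however, the adipogenic density was 0.839 times the myogenic density (median). Each density was taken over that library's own strongest peak in the region, so differences in peak width enter this factor. With this factor 5433 regions, or 32.0% (31.3 to 32.7%), would have passed. For LSD1(OE) the factor was 0.916, and 61.6% (60.9 to 62.3%) would have passed. These are arithmetic projections and not measurements. The same approximation passed 92.4% of the deposited myogenic, 96.9% of the adipogenic and 94.6% of the LSD1(OE) peaks, and 86.4% of the myogenic-only regions in their own library.

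The score comes from the same myogenic tags that were projected, so that the shares over score groups follow from the arithmetic. With the adipogenic factor, 41 of 4255 regions in the lowest score group (0.964%), 2.66 and 25.04% in the next groups and 4219 of 4244 in the highest (99.4%) would have passed. Called peaks of 608 to 904 bp, the range between the quartiles of the myogenic-only lengths, held a median of 53 tags in the adipogenic list and 40 at least. The 8568 myogenic-only regions of these lengths would have held a median of 49.9 at an unchanged density. All of them would have reached 40 tags and 2940, or 34.3%, would have reached 53.

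The limits of the rule left out regions that resembled those it kept. Regions near Zdhhc5 and Capns1 were kept with centres 2000.5 bp from a TSS and scores of 66.3 and 127, and one near Plxna1 at 2001.5 bp with 89.3. Regions near Npepps, Gpr52 and Mir100, at 2000, 1999.5 and 1997.5 bp with scores of 71.2, 50.4 and 59.5, were left out as promoter regions. Another 3 kept regions, near Gli2, Tnk2os and Spire1, directly adjoined a peak of another library with a gap of 0 bp. Regions near Arhgef10l and Mir7039 that overlapped such a peak by 3 bp, and one near Mir3108 that overlapped by 4 bp, were left out. In all, 1391 myogenic-only regions, or 8.19%, lay within 500 bp of a peak of another library and 23.8% within 2000 bp, with a median gap of 7605 bp. The lowest scores, 50, were found near Rptoros, Cdh18 and Trerf1.

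The myogenic-only regions were spread over introns and the space between genes. Centres of 8166 regions, or 48.1% (47.4 to 48.9%), lay in introns, 8260 (48.7%) between genes and 548 (3.23%) in exons. Other distal regions lay in introns in 47.0%, and the difference was 1.13 points (0.171 to 2.10). Of the intronic regions 2277, or 27.9%, lay in a gene other than that of the nearest TSS. The median distance to a TSS was 25565 bp, against 23472 bp for distal regions of all 3 libraries and 28319 bp for LSD1(OE)-only regions. Within 10 kb lay 10.98% (2 to 5 kb) and 13.5% (5 to 10 kb), and 149 regions (0.878%) lay beyond 500 kb.

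Many regions had a neighbour of the same class. With at most 12.5 kb between neighbours, 8056 regions, or 47.5%, formed 3100 groups, and 202 groups held at least 5. The group around Myog and Ppfia4 on chromosome 1 held 10 regions over 58.4 kb, from 134284334 to 134342686, with scores from 50.2 to 278 and 27 to 86 tags. Of these, 3 had Myog as the nearest TSS, 6 Ppfia4 and 1 Myoparr, a noncoding RNA of the Myog locus, and 4 held CAGCTG near the summit. Groups of 11 lay near Rptoros (35.8 kb) and Timp3 (64.3 kb), one of 10 near Trio (41.0 kb) and a group of 9 near Runx1 (57.6 kb).

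Chromosomes differed in how many regions they carried. Chromosome 15 held 1610 myogenic-only regions, or 15.5 per Mb, against 6.44 per Mb on the other autosomes together. Chromosomes 10 and 11 followed with 10.7 and 10.1 per Mb, chromosome 12 had the lowest autosomal value with 3.83, and X had 0.994. Regions of all 3 libraries were also densest on chromosome 15, at 6.70 per Mb, and LSD1(OE)-only regions at 8.72 per Mb. As a share of distal regions, the myogenic-only class made up 38.6% (37.2 to 40.1%) on chromosome 15 and 39.1% on the other autosomes. The lowest share was on chromosome 12, 29.6% (27.4 to 31.9%), and the highest autosomal share on chromosome 16, 47.6% (44.9 to 50.4%). The copy number of chromosome 15 in these cells was not tested.

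**Figure D4:**
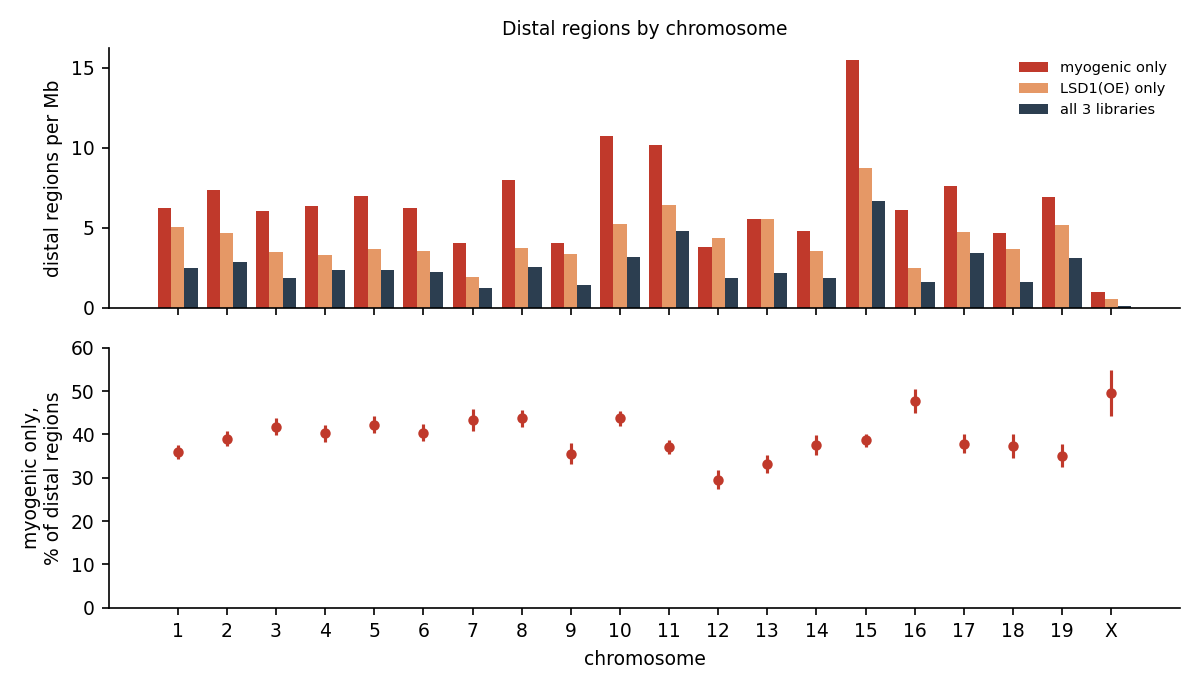
Distal regions per Mb by chromosome (top, bars from 0) for the myogenic-only class (red), LSD1(OE)-only regions (orange) and regions of all 3 libraries (dark blue), and the myogenic-only class as a percent of all distal regions with 95% Wilson intervals (bottom). Chromosome 15 stands highest in all 3 classes, with 15.5, 8.72 and 6.70 per Mb, and Y, with 2 myogenic-only regions, is not drawn.

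The 10 regions of highest score were spread over 6 chromosomes. A region in an intron of Rcan2, a calcineurin regulator, had 236 tags and a score of 991, with Enpp5 as the nearest TSS. Introns of Ttc39a (176 tags, score 965) and Cep152 (156 tags, score 958) came next. The region near Rnd1 had 175 tags and a score of 828, and those near Rybp, a Polycomb protein gene, and Ssbp3 had 226 and 178 tags and scores of 834 and 828. Gm13985 (176 tags, score 875) and Gm11211 (198 tags, score 812) were also among the top 10. The region near Pisd-ps2 differed from all of these, with 1905 tags over 6456 bp but a fold enrichment of 2.14. Another 4 regions, near Axin2, Ccr1, Hjurp and Galnt5, held 407 to 616 tags with scores of 50.8 to 71.8.

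Nearest TSSs assigned the 16974 regions to 7602 genes, or 29.0% of the 26180 genes with a curated TSS. Of these genes, 3689 had at least 2 regions, 757 at least 5 and 108 at least 10. The gene with most was Cdh18, a cadherin gene, with 42 regions over a territory of 1345 kb, the bases nearest to its TSSs. None of its regions was called in all 3 libraries, and the 42 were 76.4% of its 55 distal regions. Their scores ran from 50 to 340 with a median of 79.8. Runx1, a transcription factor of the Runt family, had 28 regions over 435 kb with scores from 50.4 to 283, and 9 regions of all 3 libraries. Asap1 had 27, Gm20125 25, Med30 24, Tns3 and Trio 19 each, E130006D01Rik and Mtdh 18 each and 1700012I11Rik 17. Of these 10 genes 6 lay on chromosome 15. Of the genes on chromosome 15, 55.6% had a myogenic-only region, against 28.0% on the others.

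Of the 7602 genes with a myogenic-only distal region, 4344, or 57.1% (56.03 to 58.3%), also had a peak of the myogenic list within 2000 bp of a TSS, where all genes at the same territory sizes had one in 40.1%. An LSD1(OE) promoter peak was present at 48.2% and an adipogenic one at 37.2% of these genes, against 32.4 and 23.5% at the same territory sizes. Here and below, territory sizes were matched only in 4 groups of 6545 genes each, the widest from 94.5 to 4149 kb. Of the 5234 genes with an LSD1(OE)-only region, 56.4% (55.1 to 57.7%) had a myogenic promoter peak, with an interval that overlapped that of the myogenic-only genes. For 8011 regions (47.2%) the gene also had a distal region called in all 3 libraries. By contrast, 1848 regions (10.9%) at 1336 genes had neither a myogenic promoter peak nor any other class of distal region.

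Among myogenic regulators, 24 of 36 genes, or 66.7% (50.3 to 79.8%), had a myogenic-only distal region, beside 29.0% of all genes. Large territories hold more regions, and all genes at the territory sizes of this list had 35.4%. Of the 36 genes, 18 lay in the widest of the territory groups, so the match in size is coarse. LSD1(OE)-only distal regions were present at 18 of the 36 genes and 20.0% of all genes. The list had 74 regions, 18 of them with CAGCTG (24.3%). Most lay at Eya4, a transcriptional coactivator gene, with 10 regions and a highest score of 189, and at Vgll2, a Tead cofactor, with 9 and 200. The strongest were at Tcf3, which encodes the E-protein partners of MyoD (96 tags, score 345), at Msc, a bHLH repressor of myogenic factors (97 tags, score 281), and at Myog (86 tags, score 278). The 3 Myog regions lay 3211, 7345 and 17577.5 bp downstream of the TSS, with 31, 47 and 86 tags and scores of 60.2, 117 and 278. The strongest of them, shown above with its 2 E-boxes, lay within an intron of Ppfia4.

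Genes of excitation-contraction coupling, the link from membrane depolarization to calcium release, had the highest share of the lists, 17 of 22 or 77.3% (56.6 to 89.9%). All genes at the same territory sizes had 36.1%. LSD1(OE)-only distal regions were present at 5 of the 22 genes (22.7%) and regions of all 3 libraries at 4 (18.2%), beside 20.0 and 13.2% of all genes. Unlike the 36.1%, the 20.0 and 13.2% are not adjusted for territory size. The median territory was 92.5 kb in this list and 39.0 kb over all genes. Jph2, which tethers the sarcoplasmic reticulum to T-tubules, had 8 regions with scores from 53.0 to 394 and 27 to 111 tags. Casq2, a calcium store protein, had 3, with 50, 74 and 48 tags. Kcnn3, a calcium-activated potassium channel, had 7 with scores from 52.4 to 254, and Cacna2d1, a calcium channel subunit, had 7 with scores up to 97.2.

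Sarcomere genes stood lower, at 21 of 49 or 42.9% (30.0 to 56.7%), beside 26.4% of all genes at their territory sizes. LSD1(OE)-only distal regions were present at 13 of the 49 genes (26.5%) and regions of all 3 libraries at 15 (30.6%). Of all genes, 20.0 and 13.2% had such regions. Mb, the myoglobin gene, had 8 myogenic-only regions, 5 downstream and 3 upstream of its TSS, with scores from 54.0 to 321 and 36 to 127 tags. The strongest region of Mypn, a Z-disc protein, had 115 tags and a score of 441, and that of Myh2, a myosin heavy chain, 83 tags and 297. Of 12 genes whose Lsd1 occupancy the study examined, 5 had a myogenic-only distal region, beside 29.0% of all genes. Mef2b had 1 with 37 tags and a score of 74.5, Tnnc1 1 with 31 tags and 58.1, and Glis1 1 with 42 tags and 78.1, beside Myog and Mb. Among those without one were Mef2d, Myh1, Myh3, Myl1, Ttn and Tnnt3.

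At the neuromuscular junction and muscle membrane, 14 of 27 genes had a region (51.9%, 34.0 to 69.3%), beside 30.6% of all genes at their territory sizes. Sntb1, a syntrophin of the dystrophin complex, had 17 regions with a highest score of 456, and Dok7, an activator of the receptor kinase MuSK, had 1 with 145 tags and a score of 513. In the Notch pathway 16 of 26 genes (61.5%, 42.5 to 77.6%) had one, with all genes at their territory sizes at 31.0%. Rbpj, the DNA-binding partner of Notch, had 17 regions and a highest score of 324, and its coactivator Maml1 3, with 32, 116 and 29 tags. In the Wnt pathway 27 of 45 genes had one (interval 45.5 to 73.0%), beside 37.004% of all genes at those territory sizes. The ligand gene Wnt7b had 9 with scores from 51.1 to 794. Sntb1 and Wnt7b lie on chromosome 15, like Mb. For TGF-beta and BMP signalling the count was 20 of 41 (48.8%, 34.3 to 63.5%), beside 37.8% of all genes at those territory sizes and 48.8% of the list with an LSD1(OE)-only region. Smad3, a TGF-beta effector, had 9 and the inhibitory Smad6 2, the stronger with 81 tags and a score of 300.03. LSD1(OE)-only regions were present at 13 of the 27 junction and membrane genes (48.1%), beside 20.0% of all genes. They were also present at 11 of the 26 Notch genes (42.3%) and 16 of the 45 Wnt genes (35.6%). Regions of all 3 libraries were present at 4 of the 27 junction and membrane genes (14.8%) and 10 of the 26 Notch genes (38.5%). For the Wnt list this was 14 of 45 (31.1%) and for TGF-beta and BMP signalling 13 of 41 (31.7%), beside 13.2% of all genes.

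AP-1, Tead and Runx factor genes had a region at 14 of 23 (60.9%, 40.8 to 77.8%), beside 32.5% of all genes at their territory sizes. The 76 regions included 28 at Runx1, 11 at Runx2 and 11 at Runx3. Collagen and matrix genes had one at 29 of 40 (72.5%, 57.2 to 83.9%), beside 41.97% of all genes at their territory sizes, and an LSD1(OE)-only region at the same number of genes. Timp3, a metalloprotease inhibitor, had 14. Of genes of Lsd1, CoREST and its partners 12 of 21 had a region (57.1%, 36.5 to 75.5%), beside 31.3% of all genes at their territory sizes, among them Gfi1 (99 tags, score 303) and Rest (74 tags, score 244), repressors that recruit Lsd1. LSD1(OE)-only regions were present at 13 of the 23 AP-1, Tead and Runx genes (56.5%), beside 20.0% of all genes. Of the 21 genes of Lsd1, CoREST and partners, 8 (38.1%) had an LSD1(OE)-only region. Regions of all 3 libraries were present at 9 of the 23 AP-1, Tead and Runx genes (39.1%) and 22 of the 40 collagen and matrix genes (55.0%). For genes of Lsd1, CoREST and partners this was 5 of 21 (23.8%), beside 13.2% of all genes.

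Adipogenic regulators and adipocyte genes had a region at 23 of 39, or 59.0% (43.4 to 72.9%), against 36.6% of all genes at their territory sizes and 53.8% of the list with an LSD1(OE)-only region. Klf4 had 13 myogenic-only regions, Rxra, the partner of PPAR receptors, 8 with a highest score of 335, and Tle3, a corepressor, 5 with 238. Regions of all 3 libraries were present at 11 of the 39 genes (28.2%), beside 13.2% of all genes. Lists of other functions stood near the background. Cytosolic ribosomal protein genes had a region at 16 of 70 (22.9%, 14.6 to 34.0%), beside 18.6% of all genes at their territory sizes. Neuronal genes had one at 11 of 30 (36.7%, 21.9 to 54.5%), beside 39.1%.

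The study named genes with inverse responses to LSD1 in adipogenic medium, from RNA-seq that was not analysed here. Of 270 matched genes raised by LSD1 and lowered by its knockdown, 169 had a myogenic-only distal region, or 62.6% (56.7 to 68.1%). All genes at their territory sizes had 35.8%. An LSD1(OE)-only region was present at 108 of the 270 (interval 34.3 to 45.9%) and a region of all 3 libraries at 101 (37.4%). Of all genes, 20.0% had an LSD1(OE)-only region and 13.2% a region of all 3 libraries, so these classes also stood above the share of all genes. That share, unlike the 35.8%, is not adjusted for territory size. The 580 myogenic-only regions of the 270 genes held CAGCTG in 19.3%, close to the 18.5% of the whole class. Of 69 matched genes with the opposite response, 36 had a myogenic-only region (52.2%, 40.6 to 63.5%), beside 29.2% at their territory sizes. An LSD1(OE)-only region was present at 28 of the 69 (40.6%) and a region of all 3 libraries at 19 (27.5%). The intervals of the myogenic-only shares of both lists overlapped. The strongest region among the raised genes was that near Rybp, while Aopep had 15 regions and Palld 13. Among the lowered genes Prg4 had 7 with a highest score of 290, and Efnb2 9.

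**Figure D5:**
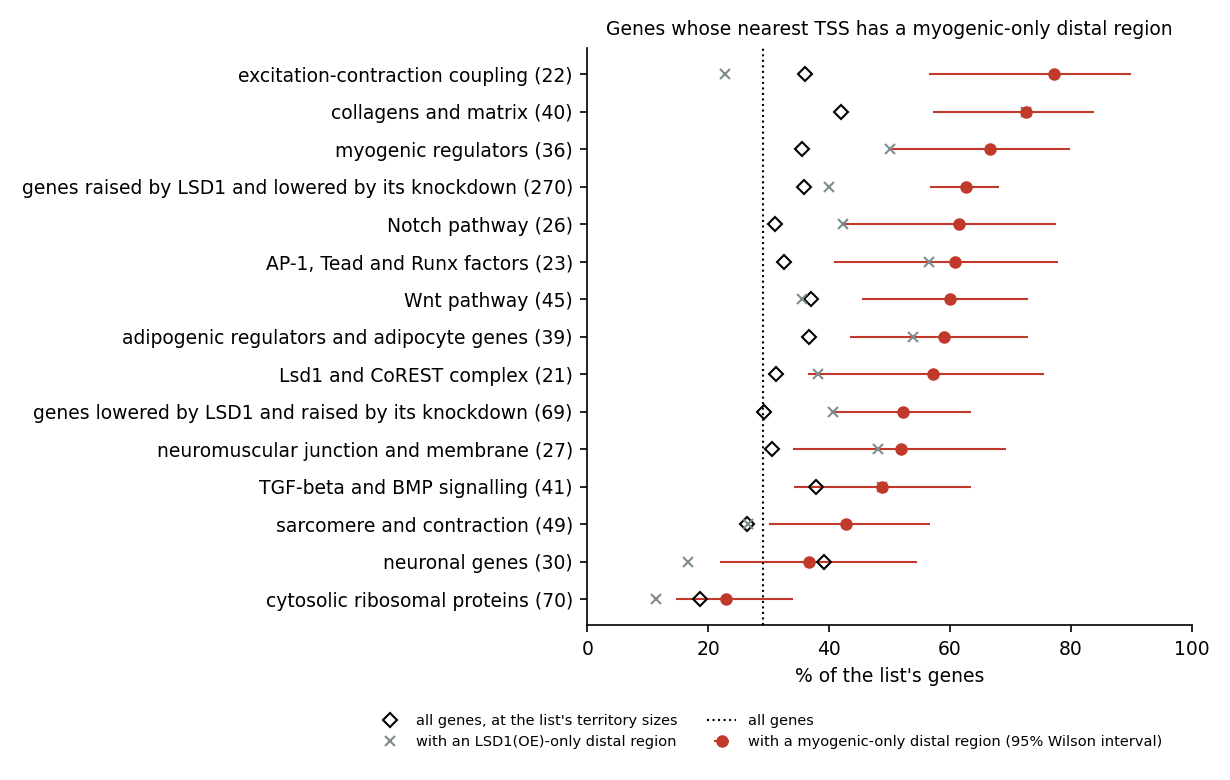
Percent of each list's genes whose nearest TSS has a myogenic-only distal region (red, 95% Wilson interval, number of genes in brackets), all genes at the same territory sizes (open diamonds), the list's genes with an LSD1(OE)-only distal region (crosses) and all genes (dotted line, 29.0%). Excitation-contraction coupling stands highest at 77.3%, and ribosomal protein genes lowest at 22.9%.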

How the data were processed

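Lsd1 ChIP-seq of C2C12 cells was analysed from the deposited peak lists, 1 per condition. Single reads of 50 bp were mapped to mm10 with Bowtie2 per the labels (Bowtie in the study's methods), and per the file headers the authors called peaks with MACS 1.4.2 (1.41 in the submitters' processing notes) for each ChIP library against its input, at a p cut-off of 1e-05, scaling the smaller library up. The deposited tag counts are not normalized and follow MACS's duplicate filter. As score, the authors deposited MACS's p-value as −log10, multiplied by 10, and the deposited fold enrichment, a ratio over the local background, is not on 1 scale between libraries. The deposited FDR is in percent. The labels give 3 days of adipogenic cocktail and the study's methods 2.

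Merging, distances and motif searches used matplotlib 3.10.9, SciPy 1.17.1, pandas 2.3.3 and NumPy 2.4.6 under Python 3.11.15 and were tested on simulated data. TSSs were 31647 curated RefSeq TSSs of 26180 genes on GRCm38.p6. Summits were those deposited. Motifs were searched on both strands, with flank windows and other distal classes beside. Shares have 95% Wilson and differences 95% Newcombe intervals. With 1 library per condition there were no tests between conditions, and depth limits only what could be called, at a smallest count of 27 (myogenic), 35 (adipogenic) and 30 (LSD1(OE)) tags.

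The regions, gene lists, motifs and named genes were chosen with earlier results of these data known. Named were the 10 regions of highest score, the 10 genes with most regions, the 3 genes of each list with the highest score, 12 genes of the study, the regions next to each limit and the windows shown. Genes given for their number of regions within a list, the groups of neighbours and the regions of high tag counts were chosen after their values were seen. Of the study's names of genes raised by LSD1, 259 matched a current symbol, 11 an older one and 5 none, and of those lowered 65, 5 and 4, which left 339 genes. Sequences are those of RefSeq's assembly. The deposited peak intervals in BED form repeat these peaks and were not used. Alternatives were other score, FDR and peak number limits, merging, promoter and sequence windows, scaling and densities. A few of the named regions and genes are not reported here.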

Additional observations from a re-analysis of the deposited data

How the results depend on the processing

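No paired analysis was possible because each condition has 1 library. Of 64 values recomputed under alternatives, 27 stayed within the 95% interval of the value given, or within 1.5 times a count, and 37 moved. Introns held 47.4 to 48.6% of the regions under every limit, merging, window and scaling tried. The narrower and the wider promoter window moved none of the values. Merging peaks within 500 bp moved only the share of distal regions, to 38.4%. In what follows, values are the number of regions, their share of distal regions, the median score, genes with a region, the CAGCTG share, the AP-1 share and the share projected to pass in the adipogenic library. A score of at least 100 in every library gave 6950, 35.2%, 157, 4235, 22.4%, 18.9% and 90%. For this setting the projection cut-off was the p-value that corresponds to a score of 100, so the 90% is not comparable with the main value. An FDR of at most 0.1% gave 7001, 40.0%, 168, 4244, 22.9%, 19.3% and 100%. Equal peak numbers, 18893 in each list, gave 3059, 15.6%, 206, 2323, 22.3%, 19.8% and 100%. ChIP tags not scaled gave 6495, 29.5%, 77.6, 4050, 22.2%, 18.4% and 100%. This was approximated by dividing each deposited score by its library's input-to-ChIP ratio and keeping values of at least 50. The 77.6 is such a divided score, not comparable with 69.1, and the projection cut-off was changed by the adipogenic ratio. These 4 settings keep fewer peaks by construction. They also drop weaker peaks of other lists, so that regions shared in the deposited lists can become myogenic-only. With a score of at least 100 the setting counted 6950 regions, while 4720 of the regions described above reached that score. The motif shares under these settings therefore also cover regions outside the class described. For the FDR and equal-number settings the projection cut-off stayed at 1e-05, while only regions of higher myogenic score were kept. With equal numbers the lowest score kept was 147 in the myogenic list and 50 in the adipogenic list. The projection uses the same tags as the score, so the 100% of these settings was fixed by the filter. Windows of 200 bp either side of the summit gave 29.9% for CAGCTG and 24.7% for AP-1, and 50 bp gave 9.92 and 7.47%. The lowered adipogenic density gave 32.0%. Windows without soft-masked bases gave 21.3% and 15.8%, and a score of at least 100 gave 45.2% of the raised genes against 16.2% of all genes, both settings chosen after seeing the data. Depth limits the class to what 1 library per condition could call.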
